A study of Mus with 21 samples.

Results

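Red blood cells carry oxygen on haemoglobin, a protein built from a pair of alpha-like and a pair of beta-like globin chains, each holding a heme group. The primitive red cells made in the yolk sac use embryonic chains, and the definitive red cells made later in the fetal liver use adult chains. Brain cells make little globin RNA, so the globin and erythroid RNA of a whole embryonic brain comes largely from red cells that remain in its vessels, many of which are still immature at this age and retain RNA. In such bulk samples, fewer red cells and less RNA per red cell cannot be told apart.

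The genes described here are 9 globin and erythroid genes, chosen by name from the 55335 genes of the table: the adult beta-globins Hbb-bs and Hbb-bt, the adult alpha-globins Hba-a1 and Hba-a2, the embryonic beta-like globins Hbb-y and Hbb-bh1, the embryonic alpha-like globin Hba-x, the heme-synthesis enzyme gene Alas2 and the anion-exchanger gene Slc4a1. All 9 were in the table. Of these, 8 passed the filter, a sum over libraries of 10 or more normalized counts, as did 30552 genes in all, and Hbb-bh1 did not.

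RNA came from whole brains of female mouse embryos at E17.5, on a C57BL/6J background, with 1 library of poly(A) RNA per sample. The 4 groups were WT (Wapl +/+; Nipbl +/+, 5 libraries), Nipbl+/- (Wapl +/+; Nipbl +/delta, 3 libraries), Wapl Δ/+ (Nipbl +/+ with 1 Wapl delta allele, 7 libraries) and double heterozygotes, which carried 1 delta allele of each gene (6 libraries). NIPBL loads the cohesin ring onto chromosomes and WAPL releases it, and the study asked whether lowering Wapl dose corrects the changes caused by Nipbl loss. The Nipbl allele was deleted in the germ line of sires with a Stra8-icre transgene, and the Wapl allele, made in embryonic stem cells, lacks its promoter and first exons after E2a-Cre deletion, so both were constitutive and not specific to brain or blood. The litter of each sample and whether a brain was rinsed of blood are not given in the sources used here. Nothing says that libraries of a group came from separate litters, so P values measure the spread between these samples.

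Total counts lay between 25682566 and 35818767 per library. Nipbl stood at 54.3% of its WT mean in Nipbl+/- libraries and at 54.8% in double heterozygotes, and Wapl stood at 46.7% in Wapl Δ/+ libraries and at 49.3% in double heterozygotes, so both targeted genes followed the labels. Counts of mt-Nd3, encoded by the mitochondrial genome, divided the libraries, with 12 of them at no more than 20 counts and 9 far above. All 3 Nipbl+/- libraries were in the low set, as were 3 of 5 WT, 2 of 7 Wapl Δ/+ and 4 of 6 double-heterozygote libraries. In the 13 libraries with a Wapl delta allele the sets followed the order in which the labels write the Wapl alleles. The summed level of 8 brain markers, which checks the labelled tissue, lay between 5169 and 5823 CPM (counts scaled to a library of fixed size) in all groups.

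The genes lie in a few clusters of the mouse genome (GRCm38.p6). On chromosome 7, Hbb-bt occupies 103812524 to 103813923, Hbb-bs 103826523 to 103827928, Hbb-bh1 103841638 to 103843162 and Hbb-y 103851754 to 103853207. On chromosome 11, Hba-x occupies 32276600 to 32278116, Hba-a1 32283672 to 32284486 and Hba-a2 32296492 to 32297310. Slc4a1 lies farther along chromosome 11, from 102348820 to 102365281, and Alas2 on the X chromosome, from 150547417 to 150570622. Within each adult pair the copies are nearly identical, and how reads matching both copies were treated is not given in the sources used here, so the split of counts within a pair is uncertain while the sum of a pair is less affected.

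Together the 9 genes took between 0.0339% and 0.0815% of all counts of a library. Their summed level averaged 556.1 ± 151 CPM (SD, n = 5) in WT, 471.9 ± 183 CPM (SD, n = 3) in Nipbl+/-, 663.5 ± 156 CPM (SD, n = 7) in Wapl Δ/+ and 506.1 ± 126 CPM (SD, n = 6) in double heterozygotes. These means lay within the range of the WT libraries alone, from 421.9 to 720.7 CPM.

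Hbb-bs, an adult beta-globin gene, shows the pattern of the adult set. Its normalized counts were 7542, 7907, 11920, 7003 and 11940 in WT replicates 1 to 5 and 6747, 5924 and 11320 in Nipbl+/- replicates 1 to 3. Wapl Δ/+ libraries had a lowest value of 5887, a median of 11400 and a highest value of 13110, and double heterozygotes 5919, 8378 and 11670. All 4 groups overlapped: 2 of 3 Nipbl+/- libraries lay below the WT range and 2 of 7 Wapl Δ/+ libraries above it, while 1 Wapl Δ/+ library was the lowest of all 21.

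The group means of Hbb-bs were 10690 ± 2397 (SD, n = 7) in Wapl Δ/+, 9261 ± 2454 (SD, n = 5) in WT, 8607 ± 2179 (SD, n = 6) in double heterozygotes and 7998 ± 2908 (SD, n = 3) in Nipbl+/-, and no neighbours in this order differed beyond their spread. Hbb-bt, Hba-a1, Hba-a2 and Alas2 held the same order of group means. Alas2, which encodes the erythroid form of the first and rate-limiting enzyme of heme synthesis, averaged 646.7 ± 178 normalized counts in Wapl Δ/+, 559.1 ± 142 in WT, 515.8 ± 111 in double heterozygotes and 494.8 ± 241 in Nipbl+/- (SD, n as above).

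**Figure D1:**
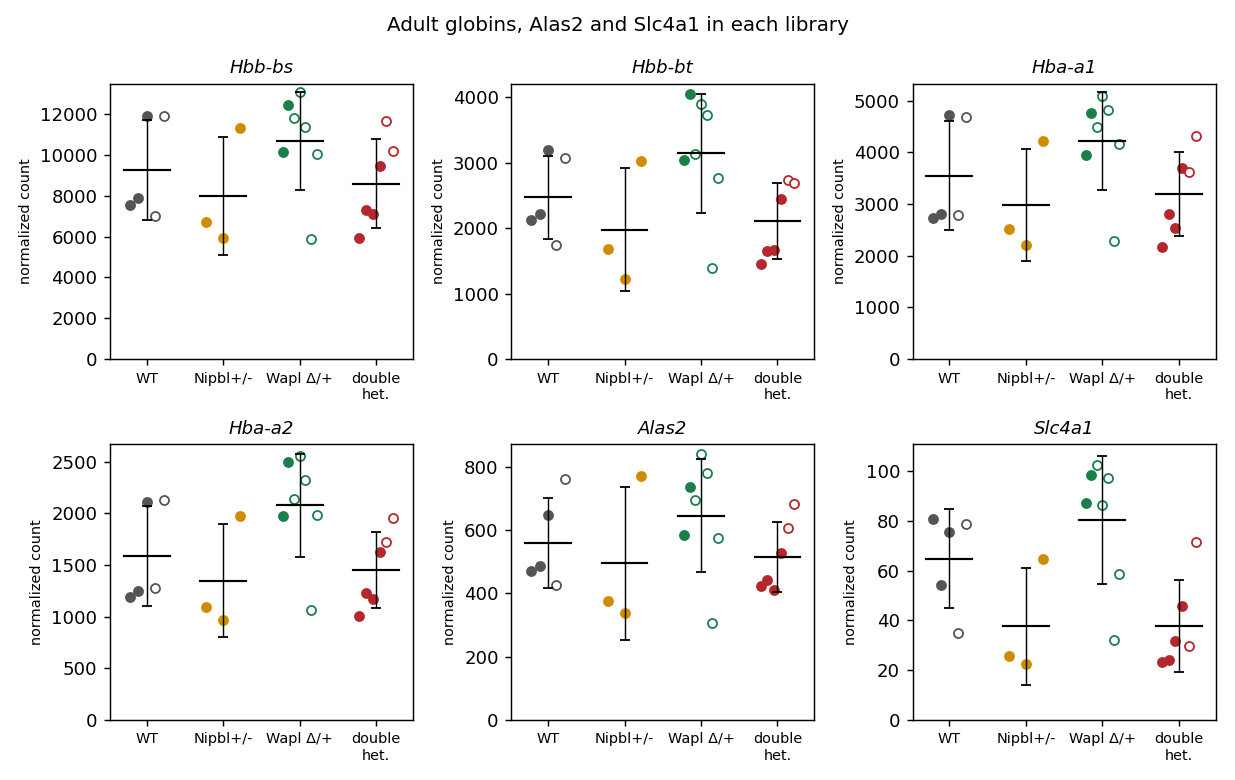
Normalized read counts (vertical axes, from 0) of the adult globins, Alas2 and Slc4a1 in the 21 libraries, 1 point per library, with the group mean (line) and SD (bar). Filled points are libraries with low mt-Nd3 counts and open points those with high counts. For Hbb-bs the groups overlap between 5887 and 13110, and for Slc4a1 the Nipbl+/- and double-heterozygote means lie at 37.6 and 37.7 against 64.9 in WT.

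The adult globins and Alas2 moved together from library to library. Over the 21 libraries, Pearson correlations of log2 normalized counts among these 5 genes lay between 0.946 and 0.991, and within groups, after the group means were removed, between 0.949 and 0.995. Slc4a1 followed them less closely (0.791 to 0.876). The points of such a correlation share their library and its depth, and the 5 genes are not independent of each other. Embryonic Hbb-y stood apart, with correlations of 0.148 to 0.203 with the adult globins and 0.591 with Hba-x, at a few reads per library.

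In Nipbl+/- brains compared with WT, the comparison that addresses the loss of 1 Nipbl copy, the fitted signs of the 8 tested genes differed by kind. The 4 adult globins, Alas2 and Slc4a1 had fold changes below 0 on the log2 scale, none of which passed the test, and both embryonic globins had fold changes above 0, of which Hbb-y passed. Thus 1 of 8 tested genes was called by the quasi-likelihood test of edgeR (adjusted P below 0.10), beside 11.2% of all tested genes, a share near that background. The median log2 fold change was -0.23 over the 8 genes and -0.01 over all genes tested. The signs of Hba-x and Alas2 changed when certain single libraries were left out. As the adult globins and Alas2 also moved together between libraries, nothing is drawn from the split of signs.

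Hbb-y encodes the beta-like chain of embryonic haemoglobin, made mainly by primitive red cells. It had 3, 5, 2, 3 and 7 raw counts in WT replicates 1 to 5 and 13, 4 and 15 in Nipbl+/- replicates 1 to 3. The groups overlapped, because Nipbl+/- replicate 2 lay within the WT range while the other two exceeded it. On the normalized scale Hbb-y rose from 3.94 ± 2.08 (SD, n = 5) to 10.9 ± 6.25 (SD, n = 3), by 1.43 ± 0.487 (SE) in log2 units (edgeR, adjusted P = 0.0846). Leaving out single libraries ended the call in 6 of 8 fits, where the adjusted P reached 0.332. So did a threshold of 0.05, a fit of all 4 groups together and the low mt-Nd3 libraries alone (edgeR adjusted P = 0.140), while DESeq2 gave the gene no adjusted P.

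**Figure D2:**
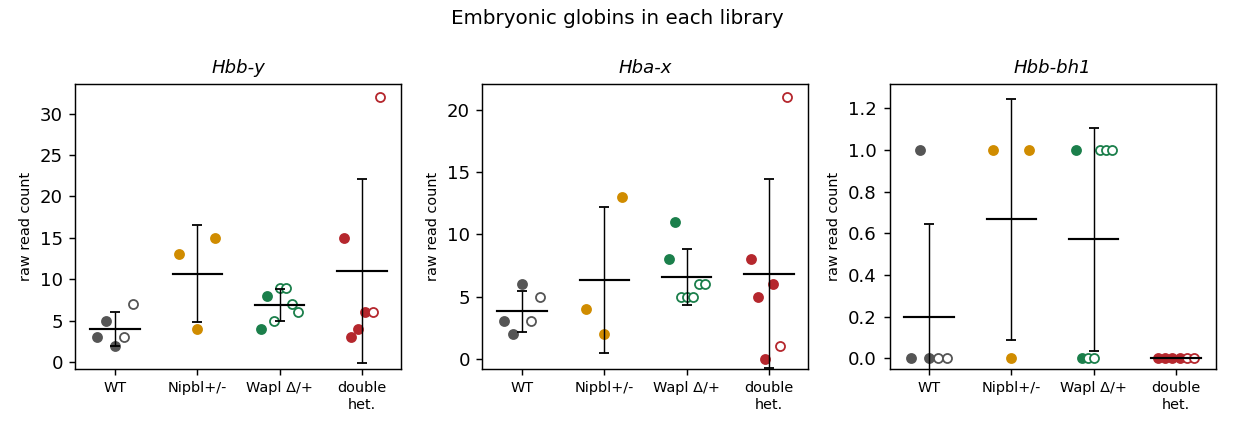
Raw read counts (vertical axes) of the embryonic globins Hbb-y, Hba-x and Hbb-bh1 in the 21 libraries, 1 point per library, with the group mean (line) and SD (bar). Filled and open points mark low and high mt-Nd3 counts. Double-heterozygote replicate 6 holds 32 Hbb-y reads and 21 Hba-x reads, and no library holds more than 1 Hbb-bh1 read.

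The other embryonic globins were at or near the limit of detection. Hba-x, the embryonic alpha-like globin, had raw counts of 3, 2, 6, 3 and 5 in WT and 4, 2 and 13 in Nipbl+/-, so that a single library made the difference between the groups (log2 fold change 0.77 ± 0.583 (SE), edgeR, adjusted P = 0.524). Without Nipbl+/- replicate 3 the log2 fold change was -0.31. Hbb-bh1, the other embryonic beta-like globin, had 0 or 1 read in each library and none in the 6 double heterozygotes, and differences between groups were not detectable at this depth.

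Slc4a1 encodes band 3, the chloride and bicarbonate exchanger of the red cell membrane that also anchors the membrane skeleton. Its normalized counts were 80.7, 54.4, 75.6, 34.9 and 79.0 in WT replicates 1 to 5 and 25.9, 22.4 and 64.6 in Nipbl+/- replicates 1 to 3. Of the Nipbl+/- libraries, 2 lay below all WT libraries and the other lay within their range. The log2 fold change was -0.81 (SE 0.300; edgeR, adjusted P = 0.118), short of the threshold. The result turned on Nipbl+/- replicate 3, the library richest in globin RNA of its group. Without it, 6 of the tested genes fell past the threshold, with log2 fold changes between -0.54 for Hbb-bs and -1.42 for Slc4a1 (edgeR adjusted P = 0.00671 for Slc4a1), and Hbb-y, at 1.09, no longer passed. Over all tested genes, 1828 to 4790 were called in this comparison when 1 library was left out. Without WT replicate 4, Slc4a1 also passed (log2 fold change -0.97, edgeR adjusted P = 0.0410). In 6 of 8 fits with 1 library left out, Slc4a1 missed the threshold, with edgeR adjusted P up to 0.396.

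In Wapl Δ/+ brains compared with WT, all 8 tested genes had log2 fold changes above 0, from 0.21 to 0.82, and none passed the test. The count of 0 called stands beside 2.22% of all tested genes. By the same edgeR test 3 of the 8 (Hba-a2, Hbb-y and Hba-x) had an unadjusted P under 0.05, as did 15.6% of all genes. DESeq2 called none, but it gave Hbb-y, Hba-x and Slc4a1 no adjusted P and so could not call them. The median log2 fold change was 0.33, beside 0.00 over all genes tested.

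Hba-a2, an adult alpha-globin gene, had the smallest adjusted P of the adult globins in this comparison. Its normalized counts were 1191, 1243, 2110, 1276 and 2129 in WT replicates 1 to 5 and 1066, 2143 and 2551 as the lowest, median and highest of the Wapl Δ/+ libraries. Of the 7 Wapl Δ/+ libraries, 4 lay above the WT range and replicate 6 lay below it. The log2 fold change was 0.39 (standard error 0.175, edgeR adjusted P = 0.287), and without Wapl Δ/+ replicate 6 it was 0.50 and passed (edgeR adjusted P = 0.0721), as did Hbb-bt (0.48, adjusted P = 0.0731).

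The embryonic globins in Wapl Δ/+ libraries had 4 to 9 reads for Hbb-y and 5 to 11 for Hba-x, against 2 to 7 and 2 to 6 in WT. Their log2 fold changes were 0.81 (standard error 0.367) and 0.82 (standard error 0.358), and the ranges overlapped. Slc4a1, at 80.4 ± 25.9 (SD, n = 7) normalized counts, was at 1.23 times its WT mean in the fit (edgeR adjusted P = 0.569). Of the Wapl Δ/+ libraries, 5 lay above the WT range for Slc4a1 and replicate 6 below it.

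Double heterozygotes compared with WT, which share their WT libraries with the comparisons above, gave log2 fold changes below 0 for 6 of the 8 genes and above 0 for the 2 embryonic globins. None passed the test, beside 3.28% of all tested genes. By edgeR, 2 of the 8, Hbb-y and Slc4a1, had an unadjusted P under 0.05, as did 13.5% of all genes. DESeq2 called 1, Slc4a1, and gave Hbb-y and Hba-x no adjusted P. The median log2 fold change was -0.11, beside 0.00 over all genes tested.

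Slc4a1 had the smallest adjusted P of the 8 genes in double heterozygotes. Its normalized counts were 23.1, 30.8 and 71.7 as the lowest, median and highest of the 6 libraries, beside 34.9 to 80.7 in WT. Of the 6, 4 lay below every WT library. The log2 fold change was -0.79 (SE 0.254, adjusted P of 0.139 in edgeR), which missed the threshold. It passed without WT replicate 4 (edgeR adjusted P = 0.0796) and without double-heterozygote replicate 6 (log2 fold change -1.07, edgeR adjusted P = 0.0170). These were the lowest WT library and the highest double heterozygote for this gene. In 9 of 11 fits with 1 library left out it missed the threshold, with edgeR adjusted P up to 0.311. Slc4a1 also passed by DESeq2 (adjusted P = 0.0664) and among the libraries with low mt-Nd3 (log2 fold change -1.17, edgeR adjusted P = 0.0112). In the low set alone, the 3 WT libraries lay between 54.4 and 80.7 and the 4 double heterozygotes between 23.1 and 45.8. With all libraries of both groups, none of the 8 genes separated in this way, beside 2.76% of all tested genes. That share was not computed for the low set, and nothing is drawn from the separation there. In the high set, the 2 WT libraries had 34.9 and 79.0 and the 2 double heterozygotes 29.9 and 71.7, too few to test on their own.

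The embryonic globins of double heterozygotes depended on replicate 6. Hbb-y had raw counts of 15, 3, 4, 6, 6 and 32 in replicates 1 to 6, and Hba-x 8, 5, 0, 6, 1 and 21. Replicates 1 and 6 lay above the WT range for Hbb-y and the other 4 within it. The log2 fold change of Hbb-y was 1.498 (standard error 0.582, edgeR adjusted P = 0.241), and 0.79 without replicate 6. For Hba-x it was 0.90 (standard error 0.650, edgeR adjusted P = 0.602), and 0.13 without replicate 6.

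**Figure D3:**
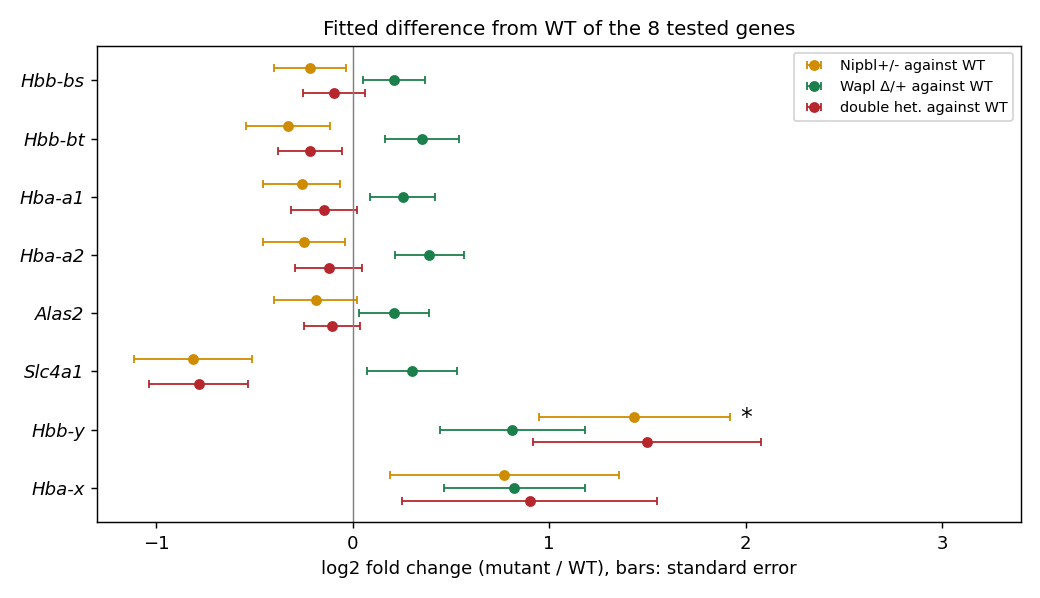
Log2 fold change of each tested gene against WT (horizontal axis) with its standard error (bars) from edgeR, for Nipbl+/-, Wapl Δ/+ and double heterozygotes, which share the WT libraries. The star marks the call at an adjusted P below 0.10 (Hbb-y in Nipbl+/-). Adult globins, Alas2 and Slc4a1 lie left of 0 in Nipbl+/- and double heterozygotes and right of 0 in Wapl Δ/+, from -0.81 to 0.39.

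Double heterozygotes and Nipbl+/- brains, which differ by the loss of 1 Wapl copy, had near-equal group means when all libraries were used. None of the 8 genes was called, beside 0.00655% of all genes, and none had an unadjusted P under 0.05 by edgeR, as did 4.12% of all genes, while DESeq2 called none. Slc4a1 averaged 37.7 ± 18.5 (SD, n = 6) and 37.6 ± 23.5 (SD, n = 3) normalized counts, and differed by 0.01 ± 0.366 (SE) in log2 units. With that error, similar means do not show that the groups are alike. All 3 Nipbl+/- libraries were in the low mt-Nd3 set, as were 4 of 6 double heterozygotes. Double-heterozygote Hbb-bs averaged 7447 in the low set (5919 to 9452) and 10930 in the high set (10190 to 11670, n = 2). In WT the set means were 9122 and 9470, and in Wapl Δ/+ 11290 and 10450. With low-set libraries only, all 8 log2 fold changes lay below 0, from -0.59 to -0.089, with no call. The part of the sets in these means was not tested.

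Double heterozygotes compared with Wapl Δ/+ brains, which differ by the loss of 1 Nipbl copy, gave the other call. Slc4a1 fell from 80.4 ± 25.9 (SD, n = 7) to 37.7 ± 18.5 (SD, n = 6), and the log2 fold change was -1.09 (SE 0.263, adjusted P of 0.0701 in edgeR). It was 1 of 8 tested genes, beside 1.02% of all tested genes. The lowest, median and highest Slc4a1 values were 31.9, 87.2 and 102.6 in Wapl Δ/+ and 23.1, 30.8 and 71.7 in double heterozygotes, and 4 of 6 double heterozygotes lay below all Wapl Δ/+ libraries. Leaving out single libraries ended the call in 9 of 13 fits, with adjusted P from 0.0129 to 0.179, and with a threshold of 0.05. Libraries with low mt-Nd3 gave a log2 fold change of -1.58 (edgeR adjusted P = 0.0358).

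The adult globins were on the same side in that comparison without passing: log2 fold changes were -0.31 for Hbb-bs, -0.57 for Hbb-bt, -0.40 for Hba-a1 and -0.51 for Hba-a2, with adjusted P from 0.228 to 0.522 by edgeR. Alas2 stood at -0.32, and the embryonic globins had values above 0, 0.69 for Hbb-y and 0.08 for Hba-x, and none of these passed. The 4 genes with an unadjusted P under 0.05 were Slc4a1, Hbb-bt, Hba-a1 and Hba-a2, beside 9.94% of all genes. Without Wapl Δ/+ replicate 6, Hbb-bt, Hba-a1 and Hba-a2 joined Slc4a1 past the threshold, with Hba-a1 at an edgeR adjusted P of 0.0975.

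Nipbl+/- compared directly with Wapl Δ/+ brains, a comparison added after the values were seen, gave log2 fold changes of -0.42 for Hbb-bs, -0.67 for Hbb-bt, -0.50 for Hba-a1, -0.63 for Hba-a2, -0.39 for Alas2 and -1.10 for Slc4a1 (standard error 0.343, edgeR adjusted P = 0.206). The embryonic globins stood at 0.63 for Hbb-y and -0.04 for Hba-x. None of the 8 was called, beside 1.16% of all genes. DESeq2 called none, but gave Hbb-y and Hba-x no adjusted P. By edgeR 4 of the 8 had an unadjusted P under 0.05, as did 10.3% of all genes. Without Wapl Δ/+ replicate 6, 3 passed, Slc4a1 among them at -1.25 (edgeR adjusted P = 0.0624).

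Whether the effect of losing 1 Wapl copy differed between the Nipbl backgrounds was tested by the interaction term of all 4 groups. No gene was called by edgeR, 0% of those tested, although 4221 genes had an unadjusted P under 0.05 and DESeq2 called 793. None of the 8 had an unadjusted P under 0.05, and DESeq2 called none of them. The terms ran from -0.12 for Hbb-bs to -0.78 for Hbb-y, with standard errors of 0.289 to 0.898, so differences of this size were not detectable with these samples.

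Proportions between these genes within a library are given as descriptions chosen after the values were seen, with no test. Slc4a1 reads per 100 Alas2 reads were 17.1, 11.2, 11.7, 8.20 and 10.3 in WT replicates 1 to 5 and 6.90, 6.63 and 8.37 in Nipbl+/- replicates 1 to 3. The lowest, median and highest were 10.1, 12.5 and 14.9 in Wapl Δ/+ and 4.92, 6.58 and 10.5 in double heterozygotes. Group means were 11.7 ± 3.304 in WT and 12.3 ± 2.09 in Wapl Δ/+, above 7.30 ± 0.936 in Nipbl+/- and 7.12 ± 2.21 in double heterozygotes (SD, n as above). The ranges of Nipbl+/- and double-heterozygote libraries both overlapped that of WT.

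Among the beta-globin reads, the share of Hbb-bt averaged 21.1% ± 0.916 in WT, 19.4% ± 2.09 in Nipbl+/-, 22.4% ± 2.01 in Wapl Δ/+ and 19.6% ± 0.924 in double heterozygotes (SD, n as above). The extremes were 17.1% in Nipbl+/- replicate 2 (1254 of 7349 reads, 95% Wilson interval 16.2% to 17.9%) and 24.7% in Wapl Δ/+ replicate 5 (3064 of 12427 reads, 23.9% to 25.4%). Intervals cover counting error only. These libraries were chosen as the lowest and highest of 21.

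The share of Hba-a2 among alpha-globin reads was narrow within groups. It was 30.9% ± 0.383 in WT and 30.9% ± 0.841 in Nipbl+/-, 31.3% ± 0.689 in double heterozygotes and 32.9% ± 0.852 in Wapl Δ/+ (SD, n as above). Wapl Δ/+ libraries, at 31.9% to 34.3%, all lay above the WT libraries, at 30.4% to 31.3%, and overlapped those of the other groups. By normalized count, 1.2% of all tested genes did not overlap between these groups and none of the 9 genes was among them. No such share was computed for proportions, and this one was picked from several after the values were seen. As reads of the near-identical copies may be split by the counting, whether this share reflects transcription of the copies was not tested. The lowest share of the 21 libraries, in Nipbl+/- replicate 1, had a 95% Wilson interval of 28.9% to 31.9%. The highest, in Wapl Δ/+ replicate 2, had one of 33.3% to 35.4%. Such counting error is wider than the gap between the WT and Wapl Δ/+ ranges.

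**Figure D4:**
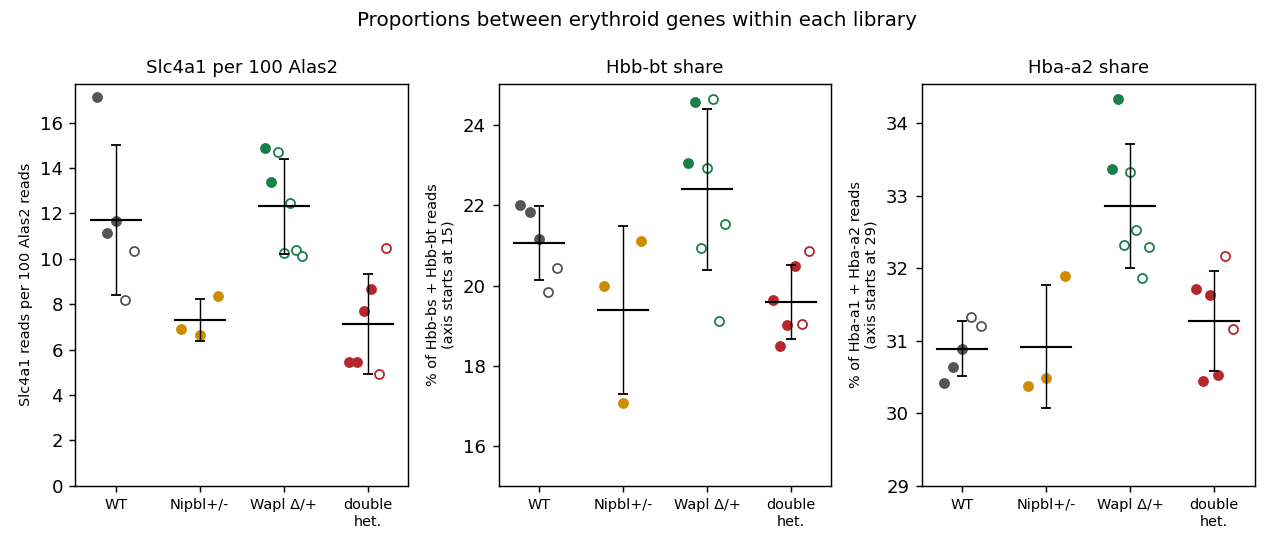
Reads of Slc4a1 per 100 reads of Alas2, the share of Hbb-bt among adult beta-globin reads and the share of Hba-a2 among adult alpha-globin reads (vertical axes; the share axes start above 0), 1 point per library, with the group mean (line) and SD (bar). Filled and open points mark low and high mt-Nd3 counts. Slc4a1 per Alas2 averages 7.30 and 7.12 in Nipbl+/- and double heterozygotes against 11.7 in WT, and all 7 Wapl Δ/+ libraries exceed WT in the Hba-a2 share. These are descriptions chosen after the values were seen, with no test.

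Embryonic globin reads per 10000 adult globin reads stood between 3.58 and 5.79 in WT. They stood at 14.85, 5.65 and 14.96 in Nipbl+/- replicates 1 to 3, at 4.44 to 12.02 in Wapl Δ/+ and at 3.07 to 29.2 in double heterozygotes. Alas2 reads per 100 adult globin reads hardly varied, at 2.89 to 4.01 over all 21 libraries.

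Other genes of the red cell program were read from lists of related genes. Counts of called genes in these lists and in the marker lists below are to be read against the shares of all tested genes called, 11.2% in Nipbl+/-, 2.22% in Wapl Δ/+ and 3.28% in double heterozygotes against WT, and nothing is drawn from a count about its list. Of the erythroid transcription factors and the erythropoietin receptor, all 13 were tested. In Nipbl+/- brains 4 rose (Ldb1 and Tal1, parts of the complex that binds globin enhancers, Zbtb7a and Bcl11a, repressors of embryonic or fetal globin genes in red cells) and 1, Sox6, a partner of Bcl11a in that repression, fell. Their log2 fold changes were 0.25 for Ldb1 (standard error 0.0410, edgeR adjusted P = 0.00101), 0.26 for Tal1, 0.19 for Zbtb7a, 0.10 for Bcl11a and -0.32 for Sox6. In Wapl Δ/+ brains 1 rose, Zbtb7a (0.21, edgeR adjusted P = 0.0574), and in double heterozygotes 1, Tal1 (0.18, edgeR adjusted P = 0.0824). Brain cells also express Ldb1, Tal1, Zbtb7a, Bcl11a and Sox6. Gata1 and Klf1, master factors of the red cell line, had 0 to 5 and 3 to 14 reads per library, and neither was called. Bcl11a and Sox6 are named because the count of 5 includes them, after their values were seen.

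Of 16 further genes of heme synthesis and iron uptake, 1 rose and 1 fell in Nipbl+/- brains, a share near the 11.2% of all genes: Ppox, an enzyme late in heme synthesis (log2 fold change 0.15, edgeR adjusted P = 0.0268), and Tfrc, the transferrin receptor that brings iron into cells (-0.26, edgeR adjusted P = 0.00760). Ppox also rose in Wapl Δ/+ brains (0.14, edgeR adjusted P = 0.0503), and none of the 16 was called in double heterozygotes. Tfrc was at 2492 ± 197 normalized counts in WT (SD, n = 5) and 2092 ± 110 in Nipbl+/- (SD, n = 3). Both genes are used by many cell types.

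Of 14 genes of the red cell membrane and skeleton, Xk, a membrane protein that bears a blood group antigen, fell in Nipbl+/- brains (-0.22, edgeR adjusted P = 0.0609) and in double heterozygotes (-0.24, edgeR adjusted P = 0.0348), and Epb41, a linker of spectrin and actin, rose in Nipbl+/- brains (0.14, edgeR adjusted P = 0.0516). These 2 of 14 in Nipbl+/- brains are a share near the 11.2% of all genes. None of the 14 was called in Wapl Δ/+ brains.

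Of 12 other late erythroid genes tested, Car2, a carbonic anhydrase of red cells that brain cells also make, fell in Nipbl+/- brains (-0.39, edgeR adjusted P = 0.00452) and in double heterozygotes (-0.33, edgeR adjusted P = 0.0241), and its log2 fold change in Wapl Δ/+ brains was 0.02. Car2 averaged 389.8 ± 26.8 (SD, n = 5) normalized counts in WT, 297.8 ± 25.3 (SD, n = 3) in Nipbl+/-, 395.0 ± 51.5 (SD, n = 7) in Wapl Δ/+ and 307.3 ± 31.2 (SD, n = 6) in double heterozygotes. It also fell in double heterozygotes compared with Wapl Δ/+ (-0.36, edgeR adjusted P = 0.0553). The others called in Nipbl+/- brains were Isg20, an exonuclease, which fell (log2 fold change -1.02, edgeR adjusted P = 0.0184, named after its values were seen), and Prdx2, an antioxidant enzyme abundant in red cells, which rose by 0.14. Car2 and Isg20 were also the 2 of this list that were lower in Nipbl+/- than in Wapl Δ/+ brains. In all, 3 of 12 were called in Nipbl+/- brains, beside 11.2% of all genes, and 1 of 12 in double heterozygotes, beside 3.28%. Ahsp was not analysed here.

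Of 10 genes that clear heme and iron, Cd163, the macrophage receptor that takes up haemoglobin, fell in Nipbl+/- brains (-1.93, edgeR adjusted P = 2.49e-06) and in double heterozygotes (-1.49, edgeR adjusted P = 8.83e-05), where it was also lower than in Wapl Δ/+ brains (-1.24, edgeR adjusted P = 0.00532). Its lowest, median and highest normalized counts were 20.02, 38.3 and 56.5 in double heterozygotes and 64.9, 78.7 and 133.3 in Wapl Δ/+. Slc40a1, the iron exporter ferroportin, fell in double heterozygotes (-0.27, edgeR adjusted P = 0.0268), and Ftl1, the ferritin light chain, rose in Nipbl+/- (0.13, edgeR adjusted P = 0.0565) and Wapl Δ/+ brains (0.17, edgeR adjusted P = 0.0381). Cd163 was the 1 gene of this list lower in Nipbl+/- than in Wapl Δ/+ brains. In all, 2 of 10 were called in Nipbl+/- brains, beside 11.2% of all genes, and 2 of 10 in double heterozygotes, beside 3.28%. None of the genes of these 5 lists was called between double heterozygotes and Nipbl+/- brains.

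Of 6 other globin genes tested, among them Ngb and Cygb, the globins of neurons and other tissue cells, none was called in any comparison of 2 groups. Their summed level lay between 31.1 and 37.7 CPM in all libraries. The table listed 3 further globin genes at 0 in every library, and Hbb-b1 and Hbb-b2, gene names of another beta-globin haplotype, were not analysed here.

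Markers of other cells were read beside these results. Of 15 leukocyte and platelet markers, all tested, none was called in Nipbl+/- or Wapl Δ/+ brains against WT and 1, the neutrophil gene Ltf, rose in double heterozygotes (1.27, edgeR adjusted P = 0.0659). Their summed level ranged from 13.2 to 16.9 CPM in WT, 13 to 16.6 in Nipbl+/-, 12.99 to 16.9 in Wapl Δ/+ and 14.0 to 18.6 in double heterozygotes. S100a9, another neutrophil gene, was higher in double heterozygotes than in Wapl Δ/+ brains (1.15, edgeR adjusted P = 0.0502). The other 14 markers were not called in that comparison. The median log2 fold change of the list there was 0.029, beside 0.006 over all genes tested. Ltf and S100a9 were named after their values were seen.

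Of 8 endothelial markers, the cells of the vessel wall, 1 (Cdh5) rose in Nipbl+/- (0.16, edgeR adjusted P = 0.0368) and in Wapl Δ/+ brains (0.15, edgeR adjusted P = 0.0998), and the summed level was 262.7 to 282.3 CPM in WT, 249.6 to 280.4 in Nipbl+/-, 257.7 to 294.2 in Wapl Δ/+ and 253.3 to 313.2 in double heterozygotes. Of the 8 brain markers, 2 rose in Nipbl+/- brains, the progenitor genes Sox2 (0.22, edgeR adjusted P = 0.0223) and Nes (0.22, edgeR adjusted P = 0.0672), beside 11.2% of all genes, and none was called elsewhere. The part of other cells in the differences of the erythroid genes was not tested.

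Of 6 liver markers, of which the choroid plexus of the brain also makes Ttr, 5 were tested and 1, Alb, rose in double heterozygotes (edgeR adjusted P = 0.0816). Alb had 111 and 106 reads in double-heterozygote replicates 5 and 6 and 169 and 72 in Wapl Δ/+ replicates 3 and 4, and 0 to 3 in the other 17 libraries, and was named after its values were seen. The summed level of the list, to which Ttr contributes, was 361.4 to 776.5 CPM in WT, 478.2 to 593.2 in Nipbl+/-, 535.6 to 888.0 in Wapl Δ/+ and 501.7 to 624.4 in double heterozygotes. Double-heterozygote replicate 6, which held the most embryonic globin reads, was among these 4 libraries with 72 or more Alb reads, while replicate 5 had 6 Hbb-y reads and 1 Hba-x read. Whether these go together was not tested.

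The genes most like the summed level of the 9 over the 21 libraries, among 17297 genes averaging 1 CPM or more, were Tent5c (Spearman correlation 0.855), Apex2 (0.770), Ube2l6 (0.756), Trp53inp2 (0.727) and Eef1akmt4 (0.709). They encode, in this order, a poly(A) polymerase, a DNA repair endonuclease, a ubiquitin-conjugating enzyme, an autophagy regulator and a methyltransferase of elongation factor 1A. These correlations are descriptions, taken from the top of a long ranking, and each point is a library. RefSeq places Apex2 from 150426974 to 150588206 on the X chromosome, a span that holds all of Alas2. The annotation used for counting is not given in the sources used here, so whether reads of the 2 genes are separable is not known. Tent5c averaged 132.8 ± 23.1 normalized counts in WT, 114.9 ± 30.0 in Nipbl+/-, 151.8 ± 34.5 in Wapl Δ/+ and 116.3 ± 15.2 in double heterozygotes (SD, n as above).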

How the data were processed

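Poly(A) RNA of 21 whole brains was sequenced as paired-end reads of 101 bases. Per the labels and the submitters' processing notes, the authors trimmed reads with cutadapt 2.4, mapped them to mm10 (GRCm38.p6) with STAR 2.5.3a and deposited raw counts per gene from featureCounts of Subread 1.6.4. The annotation, strand setting and treatment of multiply mapped reads are not given in the sources used here, and 1 further Nipbl+/- library was not analysed here.

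Normalized counts are counts divided by the effective library size (edgeR TMM) and multiplied by the mean effective size. Genes whose normalized counts summed to 10 or more were tested on the libraries of each comparison with edgeR 4.0.16 (R 4.3.3) and called at a Benjamini-Hochberg adjusted P below 0.10 over all genes. Alternatives were DESeq2 1.42.0, its size factors, no filter, a threshold of 0.05, all groups fitted at once, a replicate block, low mt-Nd3 libraries alone and each library left out. The replicate block used only libraries whose replicate number occurs in every group compared. Genes outside the 9 were named by rule (at most 3 per list by P among called genes of at least 1 CPM, and the 5 highest correlations), with exceptions stated. Nipbl+/- against Wapl Δ/+ was added after values were seen. The members and lists were chosen with earlier results of these data known. Tests were checked on simulated counts with the same spread for all genes and changes planted only in genes with many counts. The check therefore does not cover calls of the embryonic globins or Slc4a1. Gene positions came from RefSeq (GRCm38.p6), which matched all 9 by symbol. No pair of libraries within a group agreed within sampling noise.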

Additional observations from a re-analysis of the deposited data

Results flagged for a closer look

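Of 62 checks of a group's spread, 9 found a library far from the rest of its group, and chance gives about 1 in 20 for a single independent check. The checks share reads and libraries, so the number found cannot be set against that rate. Nipbl+/- libraries were not checked, because the check was not run on a group as small as 3 libraries. Wapl Δ/+ replicate 6 lay far below the other 6 Wapl Δ/+ libraries. It had 5887 normalized counts of Hbb-bs (the others 10050 to 13110), 2280 of Hba-a1 (3946 to 5101), 1066 of Hba-a2 (1976 to 2551) and 10620 of the adult globins together (18960 to 24660). The 9 genes summed to 348.8 CPM there (623.2 to 813.5 in the others) and to 0.0347% of all counts (0.0628% to 0.0815%). These 6 quantities share the same reads and are not separate findings. Double-heterozygote replicate 6 lay far above its group for Hbb-y, with 33.7 normalized counts (3.29 to 14.4 in the others), and for Hba-x, with 22.1 (0 to 7.71). WT replicate 2 held the single Hbb-bh1 read of its group, 1.03 normalized counts, a value that stands apart because the others are 0.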

How the results depend on the processing

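Of the fold changes of single genes recomputed under the alternatives, 724 kept their direction and side of the threshold, 22 lost a call, 40 gained one and 54 changed direction. A missing adjusted P was counted as no call. The cause of these changes was not tested unless stated. Replicate numbers did not pair the samples (correlations of same-numbered libraries from -0.246 to 0.423), so the replicate block stands only here. The block fits also left out libraries with no same-numbered library in the other group. The part of the block and that of the missing libraries in these results were not tested.

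For Nipbl+/- against WT, 1 of 8 genes was called, Hbb-y. The count was 0 with a threshold of 0.05, with all groups in 1 fit or with low mt-Nd3 libraries only. It was also 0 with DESeq2, which gave Hbb-y no adjusted P and so could not call it. The count was 6 without the filter on low counts, 4 with the replicate block, and 0 to 6 when 1 library was left out. Without the filter the prior degrees of freedom rose from 11.9 to 133. For Wapl Δ/+ against WT, 0 became 6 with the replicate block and 0 to 2 when 1 library was left out. The block fit there lacked Wapl Δ/+ replicates 6 and 7. For double heterozygotes against WT, 0 became 1 with DESeq2, without the filter, with the replicate block and with low mt-Nd3 libraries only, and 0 to 1 when 1 library was left out. Against Wapl Δ/+, 1 became 0 with a threshold of 0.05 or the replicate block, 3 with low mt-Nd3 libraries only, and 0 to 4 when 1 library was left out. For Nipbl+/- against Wapl Δ/+, 0 became 2 with the replicate block and 0 to 3 when 1 library was left out.

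Double heterozygotes against Nipbl+/- changed direction with the replicate block (Hbb-bs -0.19, Hbb-bt -0.23, Hba-a1 -0.21, Hba-a2 -0.19, Hbb-y -0.61, Hba-x -0.51, Alas2 -0.14, Slc4a1 -0.46) and with low mt-Nd3 libraries only (-0.10, -0.13, -0.089, -0.10, -0.590, -0.39, -0.13 and -0.26 in the same order), with no call. The block fit there used only double-heterozygote replicates 1 to 3. Against Wapl Δ/+, Hba-x was -0.036 with the replicate block and -0.95 with low mt-Nd3 libraries only.

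With 1 library left out, the log2 fold change crossed 0 for Hba-x (-0.31 to 1.21) and Alas2 (-0.64 to 0.024) in Nipbl+/- against WT, and for Hbb-bs (-0.21 to 0.014), Hba-a2 (-0.23 to 0.003) and Alas2 (-0.21 to 0.024) in double heterozygotes against WT. Against Nipbl+/- it crossed 0 for Hbb-bs (-0.059 to 0.44), Hbb-bt (-0.15 to 0.54), Hba-a1 (-0.068 to 0.43), Hba-a2 (-0.071 to 0.49), Hbb-y (-0.66 to 0.41), Hba-x (-0.65 to 1.21), Alas2 (-0.14 to 0.54) and Slc4a1 (-0.27 to 0.63). Against Wapl Δ/+ it did so for Hbb-y (-0.02 to 0.87) and Hba-x (-0.69 to 0.35), and in Nipbl+/- against Wapl Δ/+ for Hba-x (-1.13 to 0.40).

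Over all tested genes the calls ranged under the alternatives from 1658 to 4790 in Nipbl+/-, 7 to 1996 in Wapl Δ/+ and 454 to 2505 in double heterozygotes against WT. In double heterozygotes they ranged from 24 (low mt-Nd3 libraries only) to 626 against Wapl Δ/+ and from 1 to 58 against Nipbl+/-. In Nipbl+/- against Wapl Δ/+ they ranged from 8 to 647. Counts of the 8 genes called under an alternative are to be read against these ranges. Depth limits the embryonic globins, at no more than 32 reads per library.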

Other observations

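Afp, the fetal liver gene alpha-fetoprotein, was chosen after its values were seen. It had 67 and 36 reads in Wapl Δ/+ replicates 3 and 4 and 43 and 39 in double-heterozygote replicates 5 and 6, the 4 libraries with 72 to 169 Alb reads, and 0 to 7 in the other 17. All 4 belonged to the set with high mt-Nd3. All WT and Nipbl+/- libraries were among those 17.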
